A study of Homo sapiens with 34 samples.

Results

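The 216 distal sites described here were chosen from the 439 sites that carried called peaks of both BMAL1 and CLOCK in cells treated with 6AN, as those whose centre lay more than 1000 bp from the nearest transcription start site in the authors' annotation. The other 223 sites lay within 1000 bp of a start site and are called promoter sites. The choice used the peak calls of both factors in 6AN, so the level of either factor in 6AN, and its difference from control, are given as a description and without a test. Of the distal sites, 132 were intergenic, 74 lay in an intron, and 10 fell in other annotations, which were 4 exons, 3 non-coding transcripts, 2 transcription end sites, and 1 3′ UTR. The median distance to the nearest start site was 21.8 kb, with quartiles of 7.79 and 56.1 kb and a range from 1.06 to 3655 kb, and 99 sites lay upstream of the start. The sites were nearest to 205 genes, of which 11 had 2 sites.

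Chromatin came from *Bmal1*:*luc* U2OS, a human osteosarcoma line that stably expresses a luciferase reporter under the *Bmal1* promoter. Cells were cultured for 24 hr with 5 mM 6AN (6-aminonicotinamide), an inhibitor of the PPP (pentose phosphate pathway), or with DMSO as control. Each of BMAL1, CLOCK, H3K9ac, H3K4me3, and the input was sequenced in 1 library per condition, 10 in all. RNA came from the same line, synchronized with dexamethasone and cultured with the same agents. It was taken at 12 time points labelled from 0 to 44 hr, with 1 library per time point and agent, 24 in all. Whether the 24 hr of the ChIP-seq equals 24 hr on the RNA labels was not settled here. In the RNA, *RUNX2* (14.0 and 13.9 FPKM, control and 6AN means), *VIM* (917 and 747), and *CDH2* (19.0 and 22.5) which mark bone-lineage or mesenchymal cells, were expressed. *COL1A1* (128 and 33.9), *SPARC* (323 and 129), and *FN1* (347 and 197) were lower in 6AN, as was *VIM*. *COL1A2* and *TWIST1* were near 0 in both, and all 8 epithelial, blood, and endothelial markers had means of 1.02 or less. In bulk RNA, fewer cells of a type and less RNA per cell cannot be told apart.

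BMAL1 and CLOCK are partners that bind DNA as a heterodimer at E-boxes and activate transcription of the period, cryptochrome, and *NR1D1* genes, whose products feed back on them. Many of their sites lie far from promoters, in enhancers. H3K9ac marks active promoters and enhancers, whereas H3K4me3 is mainly a mark of promoters, so that an enhancer typically carries the former with little of the latter.

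Sequence could be shown for the few distal sites that met a start site in a later annotation. RefSeq start windows, from 250 bases before to 50 after each start (GRCh38.p14), covered the centre of 4 of the 216 distal sites and overlapped 9. The E-box CACGTG, which reads the same on both strands, was in the windows of all 4 sites whose centre was covered (Wilson interval, 51.0% to 100%) and in 4 of the 9 that overlapped a window. It was in 86 of the 146 promoter sites with a covered centre (58.9%) and in 2548 of all 35116 windows (7.26%). The windows are printed below because they hold the E-box within 100 bases of the centre of a distal site. They are given 5′ to 3′ on the strand of the transcript in lower case, with the E-box in capitals. The first is the start of *GPR146*, ending 30 bases after it, at chr7:1044296-1044575 on the plus strand, and the other three are starts of long non-coding RNAs at the sites assigned to *DAD1*, *LARP1*, and *PMEPA1*, at chr14:22556316-22556615 on the plus strand, chr5:154754971-154755270 on the minus strand, and chr20:57718503-57718802 on the plus strand.
GPR146: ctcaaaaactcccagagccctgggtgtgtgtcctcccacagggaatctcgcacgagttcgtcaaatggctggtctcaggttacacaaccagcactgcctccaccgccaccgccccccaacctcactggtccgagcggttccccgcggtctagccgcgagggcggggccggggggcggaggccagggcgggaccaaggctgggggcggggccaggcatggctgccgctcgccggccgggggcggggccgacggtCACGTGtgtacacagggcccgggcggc
LOC105370399: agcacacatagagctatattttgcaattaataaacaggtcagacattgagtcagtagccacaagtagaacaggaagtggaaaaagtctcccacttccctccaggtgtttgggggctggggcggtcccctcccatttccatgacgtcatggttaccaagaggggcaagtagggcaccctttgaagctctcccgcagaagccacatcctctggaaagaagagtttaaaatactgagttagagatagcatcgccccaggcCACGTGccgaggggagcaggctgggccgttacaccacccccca
LOC112267936: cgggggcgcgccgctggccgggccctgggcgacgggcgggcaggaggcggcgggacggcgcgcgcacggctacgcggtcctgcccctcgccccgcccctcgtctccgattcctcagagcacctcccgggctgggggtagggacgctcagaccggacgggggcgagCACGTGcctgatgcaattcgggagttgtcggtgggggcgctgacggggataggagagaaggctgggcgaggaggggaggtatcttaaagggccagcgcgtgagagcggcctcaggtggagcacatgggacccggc
LOC105372692: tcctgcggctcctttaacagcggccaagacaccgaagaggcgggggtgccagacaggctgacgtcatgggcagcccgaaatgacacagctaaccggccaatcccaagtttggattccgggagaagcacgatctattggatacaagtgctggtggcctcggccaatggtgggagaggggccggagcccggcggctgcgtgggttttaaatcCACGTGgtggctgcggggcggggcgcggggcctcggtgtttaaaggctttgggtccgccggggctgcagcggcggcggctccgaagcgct

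The E-box lay 64 bases from the centre of the *GPR146* site, 42 from that of the *DAD1* site, 4 from that of the *LARP1* site, and 92 from that of the *PMEPA1* site. CLOCK signal, the number of tags in 1000 bp scaled to 10000000 tags per library, went from 33.1 in control to 89.0 in 6AN at *GPR146*, which encodes a G protein-coupled receptor. It went from 35.5 to 64.8 at *DAD1*, from 35.5 to 70.3 at *LARP1*, and from 22.1 to 52.7 at *PMEPA1*. The median of all distal sites in 6AN was 53.8, and of the 4 only the *LARP1* site was also shared by both factors in control. Both *GPR146* and *LARP1* were high in the mark of start sites, with H3K4me3 of 189 and 194 at the former and of 258 and 261 at the latter in control and 6AN, whereas the *DAD1* site had 12.5 and 17.5 and the *PMEPA1* site 48.4 and 30.6. The E-box variants CACGTT and AACGTG were in none of the 4 windows (5.34% of all windows), the AP-1 motif TGANTCA and the antioxidant response core TGACNNNGC or GCNNNGTCA were in 1 each (7.71% and 13.3% of all windows), and the D-box TTATGTAA or TTACATAA was in none (0.886%). The windows of the other 5 sites that overlapped one, at *MALAT1*, *LIF*, *HMGA1*, *MIRLET7A1*, and *SLC1A3*, held no CACGTG, and the sequence of sites outside any window was not analysed here.

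CLOCK signal was higher in 6AN than in control at 214 of the 216 distal sites, and BMAL1 signal at 186. The median CLOCK signal went from 23.3 (quartiles, 15.9 and 35.5) to 53.8 (39.6 and 75), a median change of 1.23 on the log2 scale of signal + 1, with quartiles of 0.81 and 1.66. The median BMAL1 signal went from 22.1 to 33.6, with a median log2 change of 0.60 and quartiles of 0.26 and 0.90. CLOCK was at least 1.5-fold higher at 185 distal sites (85.6%) and BMAL1 at 109 (50.5%), beside 81.8% and 40.5% of all 439 sites. Since both factors had to have a peak in 6AN for a site to be listed, these shares describe the list. At promoter sites the medians went from 27 to 51.6 for CLOCK and from 28.1 to 35.5 for BMAL1. Distal sites were thus lower in control and at a similar level in 6AN. Since both groups had to have 6AN peaks, this too describes the list and is no result about distal sites.

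**Figure D1:**
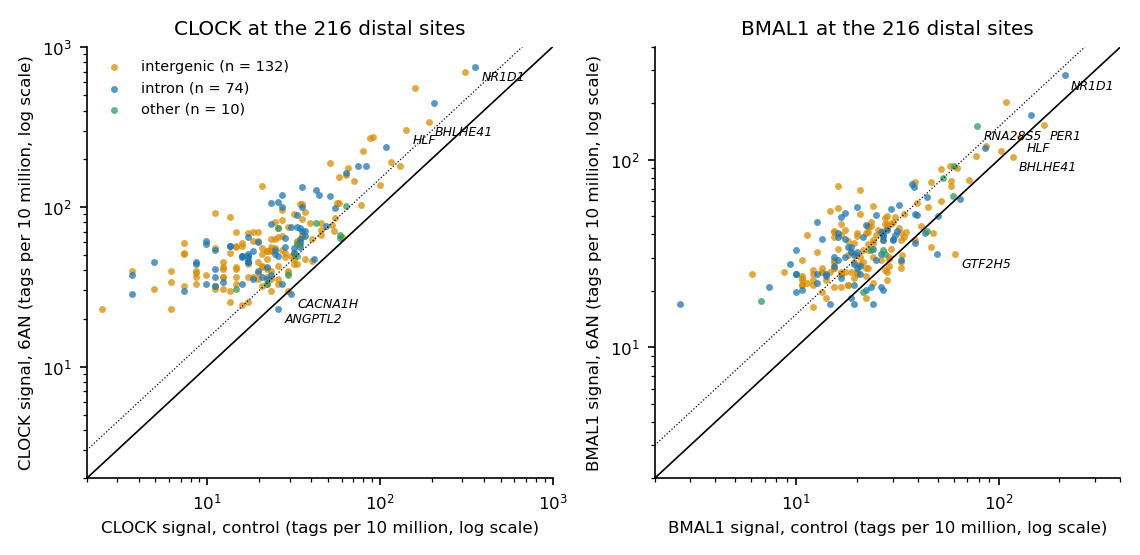
Signal in control (x axis) and in 6AN (y axis) at each of the 216 distal sites for CLOCK (left) and BMAL1 (right), in tags per 10000000 on log scales, colored by annotation, with the line of equality (solid) and of a 1.5-fold rise (dotted). In CLOCK, 214 points lie above the line of equality, and in BMAL1, 186.

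Introns and intergenic regions gave like values. The median log2 change of CLOCK was 1.34 at the 74 intronic sites and 1.23 at the 132 intergenic sites, and that of BMAL1 was 0.61 at both. The 10 sites in other annotations had median changes of 0.61 for CLOCK and 0.38 for BMAL1, and 4 of these 10 lay in 1 ribosomal RNA repeat unit on chromosome 21. With 1 library per antibody and condition, no difference between conditions or classes was tested, and sites of 1 library are not replicates. Counting error alone could be given for single sites, as an exact 95% interval of the ratio of 6AN to control. That interval covers no variation between experiments, and reads amplified by PCR are not independent molecules. For BMAL1 and CLOCK, whose 6AN peaks chose the sites, it gives the precision of a value and is no test. The exceptions to higher CLOCK signal were *CACNA1H* (30.6 and 28.6) and *ANGPTL2* (25.7 and 23.1). BMAL1 signal went from 61.0 to 31.7 at a site 63.8 kb after the start of *GTF2H5*.

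**Figure D2:**
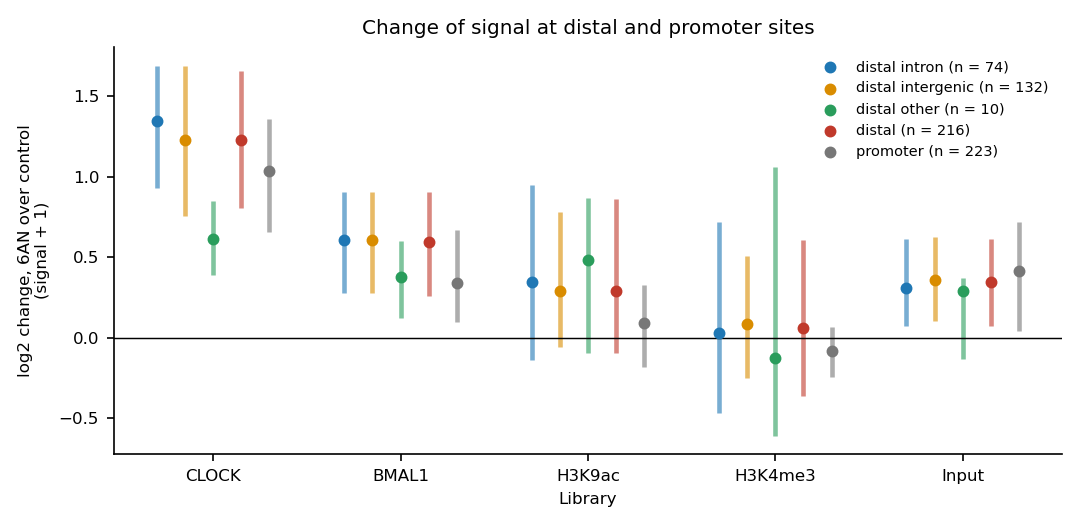
Median (points) and quartiles (bars) over sites of the log2 change from control to 6AN (y axis, signal + 1) for each library (x axis), for distal sites by annotation, all distal sites, and promoter sites. CLOCK had the largest medians, 1.23 at distal and 1.04 at promoter sites, and input was also higher in 6AN, by 0.34 and 0.41.

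Ranked by CLOCK in 6AN, the first 3 distal sites belonged to the clock genes *NR1D1* and *PER1*. Of 25 clock genes listed, 8 had a distal site and 11 a promoter site. Over all 28690 loci, 204 matched a gene nearest to a distal site and 221 one nearest to a promoter site. The 8 clock genes had 10 distal sites, all of them also shared sites in control, as were 50 of all 216 distal sites. *NR1D1*, which encodes the nuclear receptor REV-ERBα that represses *Bmal1*, had the site with the highest CLOCK signal, in an intron and CpG island 1581 bp after the start (chr17:40098644-40099644, hg38). Its CLOCK signal went from 357 to 752 (ratio interval, 1.73 to 2.58), its BMAL1 signal from 212 to 283, and its input from 7.06 to 9.33. A second *NR1D1* site 7614 bp upstream (chr17:40107839-40108839) went from 161 to 555 for CLOCK, a ratio of 3.46 (2.62 to 4.61), and from 109 to 203 for BMAL1. A promoter site of the list lay between them, and the 3 sites spanned 9.20 kb. The upstream site had H3K4me3 of 4.68 and 8.75 and H3K9ac of 35.5 and 26.6 in control and 6AN, far under the 190 and 188 for H3K4me3 and 85.1 and 90.4 for H3K9ac at the intronic one.

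Period, cryptochrome, and output genes also had strong sites. At *PER1*, a repressor of BMAL1/CLOCK, a CpG island 4062 bp upstream (chr17:8155997-8156997) went from 311 to 700 for CLOCK and from 168 to 153 for BMAL1. At *CRY2*, the other kind of repressor, an intronic site went from 83.4 to 181 for CLOCK with BMAL1 at 64.3 and 62.0, and H3K4me3 was at 6.24 and 2.19. *DBP*, a PAR bZIP activator of output genes, had an intronic site that went from 109 to 237 for CLOCK and from 85.8 to 116 for BMAL1. At *HLF*, another gene of that family, a CpG island 26560 bp upstream went from 142 to 304 for CLOCK and from 128 to 132 for BMAL1. CLOCK in 6AN was more than 2 times the control at these sites of all 4 genes, which was not particular to them. Log2 changes there were 1.17 at *PER1*, 1.11 at *CRY2* and *DBP*, and 1.09 at *HLF*, beside a median of 1.23 over all distal sites.

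The repressors *BHLHE40* and *BHLHE41*, which compete for E-boxes, and the kinase gene *CSNK1D*, whose product phosphorylates PER proteins, had the remaining 4. The *BHLHE41* site went from 191 to 341 for CLOCK and from 117 to 104 for BMAL1. *BHLHE40* had weak sites at +7596 and +47201 bp, with CLOCK of 35.5 and 33.1 in control and of 83.5 and 61.5 in 6AN. The *CSNK1D* site, 14433 bp upstream in an LTR of the MLT1B family, went from 87.0 to 268 for CLOCK and from 77.1 to 104 for BMAL1. Outside the clock genes, the strongest intronic site lay in the non-coding gene LOC101929125 on chromosome 20, where CLOCK went from 205 to 447 and BMAL1 from 145 to 173. Of the 439 sites ranked by CLOCK in 6AN, 4 of the first 10, 23 of the first 50, and 48 of the first 100 were distal. These shares are near that of distal sites in the whole list, 216 of 439.

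**Figure D3:**
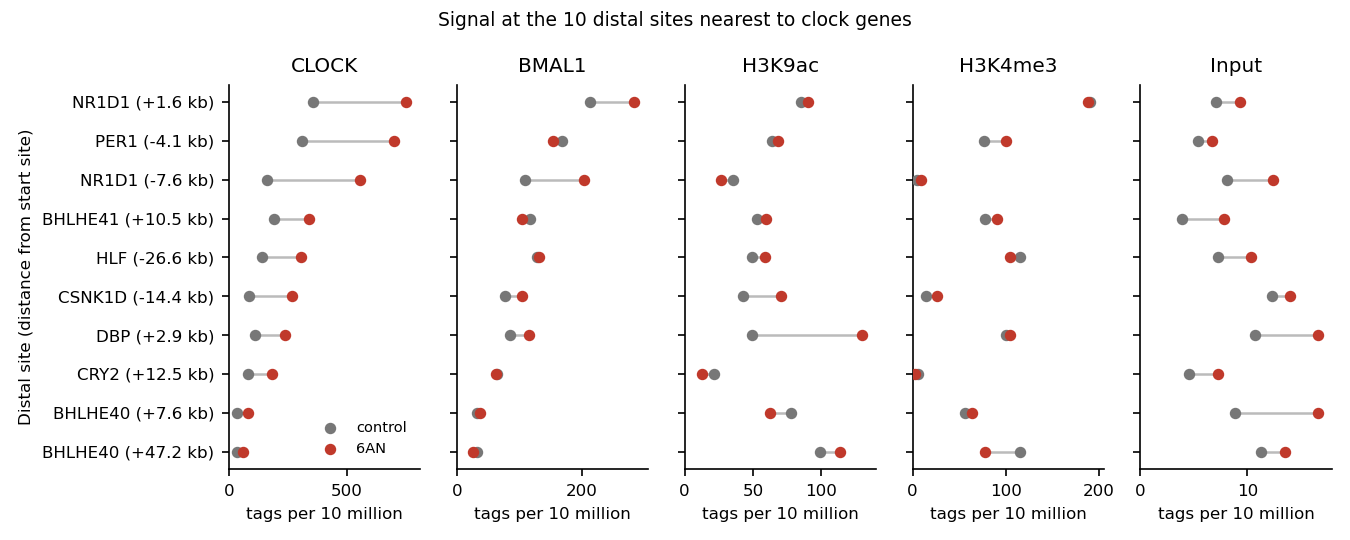
Signal in control (gray) and 6AN (red) at each of the 10 distal sites nearest to clock genes (y axis, with distance from the start site), for each library in tags per 10000000 (x axes, which differ between panels). CLOCK was higher in 6AN at all 10, as at 214 of the 216 distal sites. H3K9ac at the *DBP* site was 49.7 and 130, the largest ratio of the 10, from 7 control tags (counting interval, 1.19 to 6.77).

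Of 20 genes listed as targets of NRF2, the transcription factor of the antioxidant response, *FTH1* had a distal site. A promoter site was nearest to 1 other gene. Beside them, over all 28690 loci, were 204 and 221 genes, and counts of 1 among 20 are too small to read either way. *FTH1* encodes ferritin heavy chain, which stores iron. Its site 4301 bp upstream was weak in control and absent from the control list, with CLOCK going from 7.35 to 50.5 (ratio, 6.88; 2.08 to 35.8) and BMAL1 from 15.4 to 41.8. Its H3K9ac went from 10.6 to 47.9 with a ratio interval that held 1 (0.942 to 65.9). Among the sites in other annotations, *HSPB1*, a small heat shock protein gene, had an exonic site with CLOCK of 25.7 and 73.6 and H3K4me3 of 404 and 259.

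Most distal sites were not shared sites in control. Of the 216, 50 (23.1%; Wilson interval, 18 to 29.2) had a site of the control list within 200 bp, a share like that of promoter sites, 55 of 223 (24.7%). The control list held 147 sites, of which 64 were distal. The peak calls of the control libraries were less alike between distal and promoter sites. At 118 distal sites (54.6%; 48.0 to 61.1) neither factor had a control peak, against 68 promoter sites (30.5%; 24.8 to 36.8). BMAL1 had a control peak at 86 distal sites (39.8%), against 222 of all 439 (50.6%), and CLOCK at 66 (30.6%), against 147 (33.5%). Both had one at 54 distal sites (25%), against 116 of all sites (26.4%). The distal sites of the control list went from a median of 53.3 to 103 for CLOCK and from 41.5 to 49.4 for BMAL1, and the other 166 from 20.2 to 48.3 and from 19.4 to 30.4. Sites in a CpG island were in the control list more often, 20 of 43, whereas 1 of the 29 sites farther than 100 kb from a start was.

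H3K9ac was measured in a control library of 2819101 mapped mates and a 6AN library of 9400283, each mate counting as 0.5 tag, so that 1 control tag was worth 7.09 units of signal and 1 tag of 6AN 2.13, and the median distal site held 5.00 control tags. The median H3K9ac signal at distal sites went from 35.5 (quartiles, 14.2 and 67.4) to 42.0 (23.4 and 72.6), and 152 of 216 sites were higher in 6AN. The median log2 change was 0.29, with quartiles of -0.10 and 0.86, against 0.09 at promoter sites, where the signal went from 128 to 130. H3K9ac was at least 1.5-fold higher at 77 distal sites (35.6%), beside 23.5% of all sites, and at least 1.5-fold lower at 21 (9.72%), beside 8.2% of all sites. Summed over the distal sites, the ratio of 6AN to control was 1.17 (counting interval, 1.11 to 1.24), and over promoter sites 1.01 (0.981 to 1.05). Input signal at the same distal sites went from 9.32 to 12.4, with a median log2 change of 0.34. With the input change subtracted at each site, the median log2 change of H3K9ac was -0.037. The interval of that median over sites, -0.18 to 0.064, held 0. It runs over sites of the same libraries and tests no difference between conditions. Input was at least 1.5-fold higher at 61 distal sites (28.2%), against 31.7% of all sites, and its summed ratio was 1.30 (1.25 to 1.36) at distal and 1.37 (1.31 to 1.44) at promoter sites.

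Site by site, the counting interval of the H3K9ac ratio lay above 1 at 9 distal sites, or 4.17% beside 2.96% of all sites, and below 1 at 3, or 1.39% beside 1.82%. The 9 were those of *DBP*, *GPR146*, *MEF2D*, *MGLL*, *GTF2IRD1*, *UACA*, and *LINC01488* and 2 in the 28S ribosomal RNA gene. At *DBP* the H3K9ac signal went from 49.7 to 130, from 7 tags to 61, a ratio of 2.61 (1.19 to 6.77) with H3K4me3 at 99.9 and 105. At *MEF2D*, which encodes a MADS-box transcription factor, H3K9ac went from 42.6 to 112 and BMAL1 from 16.1 to 72.2. Among the 53 sites with at least 10 control tags, the largest increases included those at *GPR146* (88.7 and 173) and *KIAA1731NL* (78.0 and 119). The ratio interval at *KIAA1731NL* held 1 (0.791 to 3.23). The 3 sites below 1, which had the largest falls, were *EDN2* (110 and 45.7), *MIR585* (74.5 and 29.8), and *LINC00398* (88.7 and 29.8), and CLOCK was higher in 6AN at each of them, at *EDN2* from 27 to 82.4. The highest H3K9ac in 6AN was at *MAFK* (263 and 349), the gene of a small MAF partner of NRF2, at *KLF9* (270 and 331), and at *MIR1204* (316 and 277), none of them with a counting interval that left out 1. Across the 216 sites, Spearman's rho between the changes of CLOCK and H3K9ac was 0.09, a description over sites of the same libraries.

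H3K4me3 at distal sites was low and did not move in 1 direction. Its median was 12.5 in control and 15.9 under 6AN, against 283 and 272 at promoter sites, and 117 of 216 distal sites were higher in 6AN. It was at least 1.5-fold higher at 57 distal sites (26.4%), beside 14.4% of all sites, and at least 1.5-fold lower at 35 (16.2%), beside 9.34% of all sites, and the median site held 4.00 control tags. With the input change subtracted, the median log2 change went from 0.06 to -0.30. The summed ratio was 0.964 (0.927 to 1.003). The interval of the single ratio lay above 1 at 2 sites (*CYP2A6* and 28S ribosomal RNA), or 0.926% beside 1.59% of all sites, and below 1 at 5 (*CCNE1*, *HSPB1*, *SCX*, *MIR585*, and *MIR1204*), or 2.31% beside 4.78%. At *CCNE1*, the gene of cyclin E1, H3K4me3 went from 351 to 268 while CLOCK went from 63.7 to 158. High H3K4me3 was not rare among the sites called distal. At 37 of them the control signal was 100 or more, 26 of these lay in a CpG island, and 16 were in the control list.

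The repeat and CpG island labels of the deposited annotation, which the choice of sites did not use, divided the distal sites further. The 43 sites in a CpG island had the highest marks, with median H3K9ac of 92.2 and 107 and H3K4me3 of 162 and 142 in control and 6AN. The 13 sites in an LTR, the terminal repeat of an endogenous retrovirus, had the lowest control H3K9ac, a median of 10.6, and went to 24.5, with 12 of 13 higher in 6AN and 11 at least 1.5-fold higher. Their summed H3K9ac tags were 29.5 in control and 202 in 6AN, a ratio of 2.05 (1.39 to 3.13) against 1.17 over all distal sites, and their input ratio was 1.27 (1.05 to 1.52). CLOCK at the LTR sites went from 30.6 to 67.0 and H3K4me3 from 7.80 to 13.1. Of the 13, 6 were MLT1 elements, among them the sites of *CSNK1D*, *ABHD2* (CLOCK, 57.6 and 153), *ELFN2* (65.0 and 175), and *SRSF7* (51.5 and 118). The 15 sites in other repeats had H3K9ac of 28.4 and 30.9, and the 145 in neither had 28.4 and 35.1. This class was singled out after its values were seen, none of its sites had an H3K9ac ratio interval above 1 by itself, and no test was run.

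**Figure D4:**
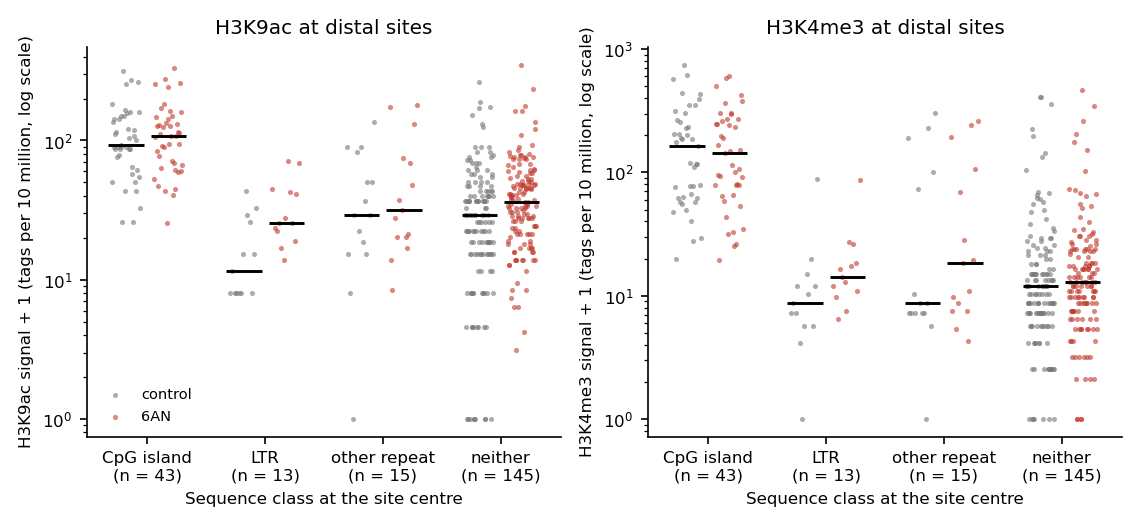
H3K9ac (left) and H3K4me3 (right) signal + 1 at each distal site in tags per 10000000 (y axis, log scale) in control (gray) and 6AN (red), by the sequence class at the site centre (x axis), with medians as black lines. The 13 LTR sites have a median H3K9ac of 10.6 in control and 24.5 in 6AN, and points in horizontal rows are sites with the same small number of tags.

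Within 20 kb of one another lay 20 distal sites in 9 clusters. At *THRA*, the gene of thyroid hormone receptor α beside *NR1D1*, 2 intronic sites went from 27 to 119 and from 23.3 to 105 for CLOCK and were absent from the control list. Upstream of *PPL*, which encodes periplakin, 2 sites 1.48 kb apart went from 79.7 to 224 and from 20.8 to 134. The stronger of these was in the control list and the weaker was not, and their ratio intervals were 1.88 to 4.31 and 3.12 to 15.1. At *EDN2* the pair went from 27 to 82.4 and from 7.35 to 59.3. The cluster with the most sites was the ribosomal RNA unit, where CLOCK went from 58.8 to 67.0, 63.7 to 101.1, 29.4 to 37.4, and 58.8 to 63.7, and BMAL1 at the 28S gene went from 78.4 to 152. Ribosomal RNA genes exist in many copies, so these sites pool reads from all of them.

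Some distal sites stood apart in the input. The site of *EMBP1*, 3655 kb from its start, had an input of 45.1 and 40.4, and the next highest in 6AN were *ASAP1* (19.5 and 28) and LOC101927845 (17.9 and 25.9), both on chromosome 8. The 10 distal sites on that chromosome had a median input of 11.9 and 14.0, and the other 206 sites 9.32 and 12.4. Both factors were at least 2 times the input in 6AN at 176 distal sites (81.5%; 75.8 to 86.1) and at 196 promoter sites (87.9%; 83.0 to 91.5). Without the ribosomal, *EMBP1*, and chromosome 8 sites, the median log2 change was 1.24 for CLOCK, 0.60 for BMAL1, and 0.27 for H3K9ac. At the border of 1000 bp, just inside, *HES1* at -1080 bp had CLOCK of 53.9 and 70.3 and H3K4me3 of 186 and 142, and just outside, *LRFN4* at -858 bp had CLOCK of 28.2 and 70.3 and H3K4me3 of 284 and 196.

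RNA of the nearest genes lay both above and below control. Expression in FPKM was in 1 table per condition, each normalized on its own, so levels are set side by side, as the mean over 12 time points ± SD over those points, which is not replicate error. Of the 205 genes, 204 matched a locus, 5 of these through a locus that joins several gene names, and 142 had a mean of at least 1 FPKM over all 24 libraries. Among the 142, 27 (19.0%) were at least 1.5-fold higher in 6AN, on the scale of mean FPKM + 1, and 27 (19.0%) at least 1.5-fold lower, beside 5.87% and 9.69% of all 13979 expressed loci. Genes of promoter sites had 27 and 6 of 209. The median log2 ratio of the 142 was 0.09, that of all expressed loci -0.04. FPKM was higher in 6AN at all 12 time points for 35 of the 142 (24.6%) and lower at all 12 for 42 (29.6%), beside 13% and 21.4% of all expressed loci. For genes whose site lay within 20 kb, the numbers were 17 higher and 12 lower of 70.

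Clock genes with distal sites did not share a direction. *PER1* went from 15.3 ± 3.15 to 31.4 ± 8.45 FPKM, higher in 6AN at 12 of 12 time points. *BHLHE40* (54.7 ± 9.08 to 93.8 ± 10.1) and *CSNK1D* (74.4 ± 2.59 to 84.2 ± 3.09) were also higher at all 12, *CRY2* (5.62 ± 0.834 to 9.14 ± 1.91) at 11, and *NR1D1* (16.3 ± 4.40 to 25.5 ± 9.58) at 9. *BHLHE41* went the other way, from 28.5 ± 3.74 to 6.42 ± 1.68, lower at all 12, although CLOCK signal at its site was higher in 6AN. *DBP* was at 17.6 ± 5.38 and 19.6 ± 5.98, and *HLF* was under 1 FPKM in both. Of the 22 clock genes expressed, with or without a site, 6 were at least 1.5-fold higher and 2 lower, and of the 19 NRF2 targets 6 and 2. Of all expressed loci, 5.87% were at least 1.5-fold higher and 9.69% lower. FPKM was higher in 6AN at all 12 time points for 13% of all expressed loci and lower at all 12 for 21.4%. The factors themselves had means of 7.52 and 7.35 for *ARNTL*, which encodes BMAL1, and of 7.99 and 6.01 for *CLOCK*. The means of *ARNTL* hide differences by time point, with 6AN higher at 6 of 12. It was at 11.2 in control and 3.58 in 6AN at the label of 12 hr, and at 5.93 and 11.5 at 24 hr. The ChIP-seq was taken at 1 time, and whether clock phase differed there between conditions was not tested.

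Outside the clock, *FTH1* went from 1091 ± 51.5 to 1798 ± 146 FPKM, higher at all 12 time points. The lowest ratio of a protein-coding gene was that of *DRD1*, a dopamine receptor gene, which went from 3.87 ± 0.766 to 0.143 ± 0.155. Short RNA loci held the other extremes. *MIR1204* and *MIR6821* had the highest ratios with libraries at 0 in both tables, and *MIR6730* and *MIR606* were listed at 0 in every 6AN library. The 28S RNA locus was high in 1 library, 207 FPKM, against a 6AN median of 15.2. Without microRNA and ribosomal RNA loci, 23 genes were higher and 24 lower of 134.

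**Figure D5:**
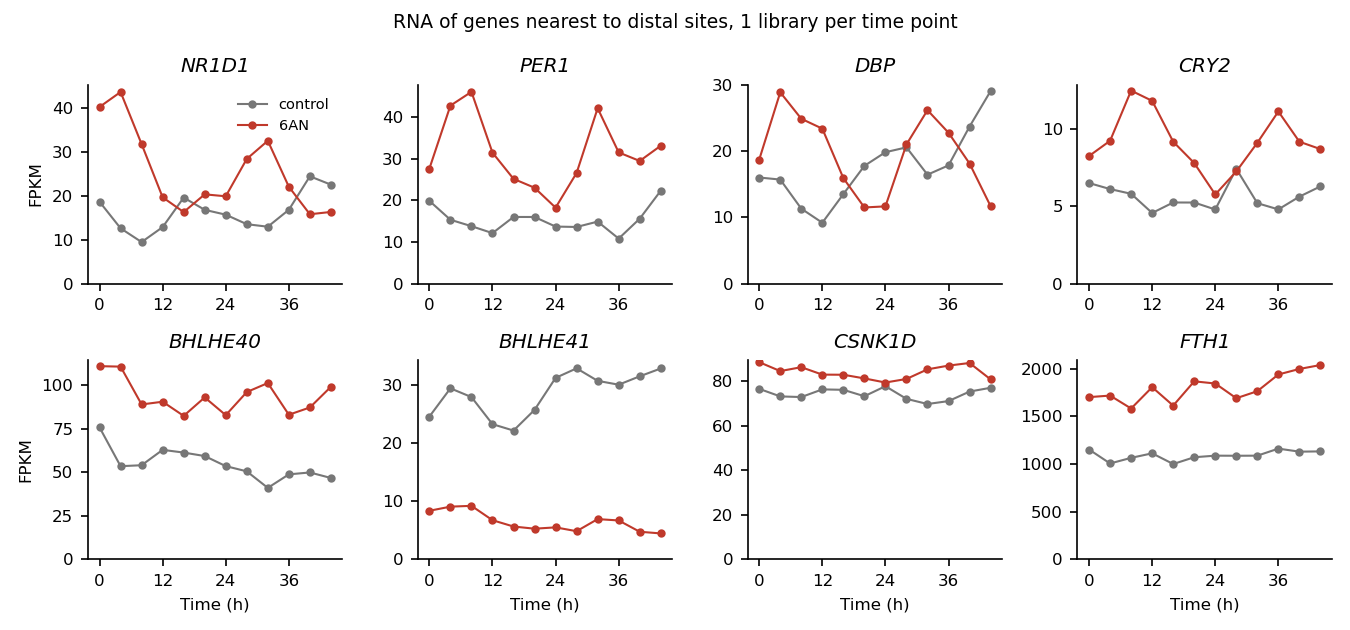
FPKM (y axis) of 8 genes nearest to distal sites in control (gray) and 6AN (red) against labelled time in hours (x axis), with 1 library per point. *PER1*, *BHLHE40*, *CSNK1D*, and *FTH1* are higher in 6AN and *BHLHE41* is lower at all 12 time points, and *DBP* crosses.

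The fit of a 24 hr rhythm called no locus in either table, near a distal site or elsewhere. A cosine fit with limma over the 12 time points, adjusted by Benjamini-Hochberg over all expressed loci, called 0 of the 142 in control and 0 in 6AN, as it called 0% of the 13979 loci in both. Even *ARNTL* did not pass (limma, adjusted p = 0.495 in control and 0.188 in 6AN). The absence of calls therefore cannot show that genes near distal sites lack a rhythm. With another algorithm and threshold, the paper counted *NR1D1* and *DBP* among the clock genes rhythmic in both conditions. At an unadjusted p under 0.05 there were 9 genes of distal sites in control (6.34%), beside 5.11% of all loci, and 20 in 6AN (14.1%), beside 4.75%. Genes of promoter sites had like shares, 15 of 209 in control (7.18%) and 29 in 6AN (13.9%). With a linear trend in the fit, the counts for genes of distal sites were 22 in control (15.5%) and 25 in 6AN (17.6%). Beside them were 6.79% and 7.82% of all loci, and 28 (13.4%) and 34 (16.3%) of the genes of promoter sites. In control, *NR1D1* had the smallest p (limma, adjusted p = 0.734), with a fitted peak at 18.7 hr, followed by *FAM210A* and *IGSF8* (both 0.941). In 6AN, *DBP* (limma, adjusted p = 0.477) and *NR1D1* (0.655) were among the 3 genes with the smallest. Fitted peaks in 6AN were at 4.69 hr for *NR1D1*, 8.20 hr for *DBP*, and 8.54 hr for *PER1*, and in control at 18.7, 21.5, and 21.7 hr, as a description of fits that did not pass. The difference between the tables was not tested.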

How the data were processed

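ChIP-seq libraries of BMAL1, CLOCK, H3K9ac, H3K4me3, and input and RNA-seq libraries were made from the reporter line with either agent. For ChIP-seq, the authors aligned paired-end reads to hg38 and deposited HOMER signal for every shared site, or tags within 1000 bp after scaling each library to 10000000, where a mate counts as 0.5. The submitters' processing notes name Bowtie, Bowtie2, TopHat, Cufflinks, and HOMER, with versions not given in the sources used here. Tags per site were recovered from the library totals in the file headers, which ranged from 2819101 to 66546211 mates, and low totals widen the counting intervals. Histone libraries list a pair of sequencing runs, of which the table used 1. RNA levels of 28690 loci were deposited by the authors in FPKM, in 1 table per condition. All per-sample columns were mapped.

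Log2 changes were taken on signal + 1 and on mean FPKM + 1. Ratios carry exact 95% counting intervals, and shares Wilson intervals. Rhythms were fitted with limma 3.58.1 in R 4.3.3 on log2(FPKM + 1) over loci with a mean of at least 1 FPKM, within 1 table, and the fit was tested on simulated data. Other values came from Python 3.11.15, pandas 2.3.3, and SciPy 1.17.1, and plots from matplotlib 3.10.9. With no genome at hand, motifs were searched in RefSeq start windows instead of the site sequences, which differs from the planned search. Sites more than 1000 bp from a start site, the gene lists, and the tests were chosen with earlier results of these data known. Sites and genes were named by a rule: the 4 highest CLOCK signals in each annotation class, the 3 highest H3K9ac and input signals, the 3 largest rises and falls of H3K9ac, sites at clock and NRF2 genes, clusters, and nearest genes with the 3 highest and lowest FPKM ratios and smallest rhythm p values. Others were named after their values were seen, and some items that the rule names are not reported here. Alternatives covered pseudocounts, distance, input, scaling, control sites, FPKM filters, rhythm models, and left-out time points.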

Additional observations from a re-analysis of the deposited data

How the results depend on the processing

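Every comparison of conditions in the ChIP-seq rests on 1 library per antibody, so variation between experiments is unknown. Control H3K9ac held a median of 5.00 tags per site, which limits what a single site can show. In all, 132 alternatives were computed, 72 of them without leaving out a time point, and 117 were labelled as unchanged. For medians and shares, this meant a value inside the interval of the reported median or share. Gene counts had no interval and were held unchanged when within 1.5-fold of the reported count. The 117 include the counts of rhythm calls near distal sites, which were 0 in every setting and so add little. With a pseudocount of 5, the median log2 change was 1.11 for CLOCK and 0.25 for the input. With promoter sites set to a median of 0, it was 0.19 for CLOCK, 0.26 for BMAL1, and -0.069 for the input, which reversed. With the input change subtracted, it was 0.89 for CLOCK, 0.26 for BMAL1, -0.037 for H3K9ac, and -0.30 for H3K4me3. Both marks changed sign, but the interval of the H3K9ac median, -0.18 to 0.064, held 0. That of H3K4me3, -0.48 to -0.18, did not, although the interval of its reported median, -0.023 to 0.17, did. These intervals run over sites of the same libraries and are no test of a direction. BMAL1 was at 0.73 over sites outside the control list. As the log2 ratio of summed signal, an alternative chosen after seeing the data like the removal of ribosomal, *EMBP1*, and chromosome 8 sites and of short RNA loci, H3K4me3 was at -0.052, also reversed. For genes within 20 kb, 17 were higher and 12 lower, from fewer genes. In the control rhythm, a linear trend gave 22 genes at an unadjusted p under 0.05 (25 in 6AN) and a 28 hr period gave 4 (15 in 6AN). The causes were not tested. Leaving out each time point, added after seeing the data for expression, gave median log2 FPKM ratios of 0.08 to 0.11, 6 to 12 genes in control and 15 to 22 in 6AN at an unadjusted p under 0.05, and 0 to 0 calls in both. No paired analysis was possible because the control and 6AN expression tables were normalized separately and each antibody has 1 library per condition. The E-box alternatives (other spans around the centre, flanks, distance, and input) and the search for glucocorticoid elements were not run, for want of the site sequences.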
